A study of Mus musculus with 15 samples.

Results

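The epidermal growth factor (EGF) family ligands and their ErbB receptors were followed through 15 Affymetrix arrays of mouse NIH3T3 fibroblasts that carried Runx transcription factors. The members were the genes Hbegf, Areg, Ereg, Tgfa, Btc, Nrg1, Egfr, Erbb2 and Erbb3, and every probe set annotated to one of these symbols alone was taken. Of the 9 genes, 8 had a probe set, and together they had 19 of the 45037 probe sets tested. No probe set carried the name Areg in the annotation used, so amphiregulin was not analysed here.

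EGF family ligands are made as precursors anchored in the cell membrane, and metalloproteinases cut them free to act on the same or neighbouring cells. A bound ligand pairs ErbB receptors, which switches on their kinases and the ERK and PI3K cascades inside the cell. Heparin-binding EGF-like growth factor (Hbegf), amphiregulin (Areg), epiregulin (Ereg), transforming growth factor alpha (Tgfa) and betacellulin (Btc) bind the EGF receptor (Egfr), while neuregulin 1 (Nrg1) binds ErbB3. ErbB2 has no known ligand of its own, and ErbB3 has little kinase activity and signals through its partners. Fibroblasts are known for answering EGF receptor ligands with growth and movement.

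All cells were NIH3T3, an immortalised mouse embryo fibroblast line, transduced with the retroviral vector pBabe-puro. Constitutive lines of mouse Runx1, of mouse Runx2 and of mouse Runx3 gave 2 arrays each, and a line with constitutive human RUNX1 gave 1 array. RUNX1-ER, a human RUNX1 made inducible, was profiled on 2 arrays after induction with 4-hydroxytamoxifen (4-OHT) and on 2 arrays uninduced. Cells with the empty vector gave 2 arrays with 4-OHT and 2 arrays without. Cultures were grown for 7 days to confluence, and ethanol at 0.2%, alone or with 4-OHT at a labelled 0.1 mM, was given for the last 24 h. The labels do not say which of these the constitutive lines received, or whether a line was a pool or 1 clone. The samples are titled as biological replicates, but the labels do not name separate cultures or transductions. The p-values therefore cover the spread among these arrays alone, which may be technical, and so few arrays limit the precision.

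The values are log2 intensities, and the median probe set lay between 3.69 and 3.75 on every array. The SD over probe sets of the difference between replicate arrays ran from 0.165 to 0.223, and 10 of the 14 arrays with a replicate were closest to it. The Runx1 probe set read 9.21 ± 0.14 in the Runx1 line and 4.65 ± 0.13 in vector cells (SD, n = 2 each). The brighter Runx3 probe set read 4.21 ± 0.35 in the Runx3 line and 4.45 ± 0.13 in vector cells. Where it lies against the transduced sequence is unknown and no probe set was named Runx2, so the arrays gave no check of the Runx2 and Runx3 lines. The Runx1 probe set read 4.69 on the human RUNX1 array, 4.67 in induced and 4.78 in uninduced RUNX1-ER cells. It therefore gave no check of the human RUNX1 and RUNX1-ER lines. All 8 fibroblast markers averaged above 5, and their list mean was 11.3 to 11.6 on every array. The epithelial list of 7 genes averaged 3.85 to 4.44 and the 5 measured leukocyte markers 3.36 to 3.71.

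Of the 19 member probe sets, 5 averaged above 5 log2 units over all arrays. These were 1 probe set each of Hbegf (1418350_at), Nrg1 (1456524_at), Egfr (1460420_a_at), Erbb2 (1424919_at) and Erbb3 (1434606_at). The other 14 averaged between 2.99 and 4.96, and 9 of the 19 lay above their array's median on every array. The normalization shrinks differences between dim probe sets. No detection calls were at hand, so whether the Ereg, Tgfa, Btc and dimmer Egfr probe sets read above background was not tested. The test was limma's moderated test on the log2 values, adjusted over all 45037 probe sets within each of 11 comparisons. A probe set was called at an adjusted p below 0.05. Probe sets of 4 genes, Hbegf, Ereg, Nrg1 and Erbb3, were called in at least 1 comparison, in 18 of 209 tests, of which 17 were lower and 1 was higher. Over all probe sets 1.52% of the tests of these comparisons were called, 4122 lower and 3432 higher, and the comparisons share arrays, so the 18 calls are not independent of each other. Total RNA from whole cultures was measured, so fewer cells that express a gene and less of its RNA per cell cannot be told apart.

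**Figure D1:**
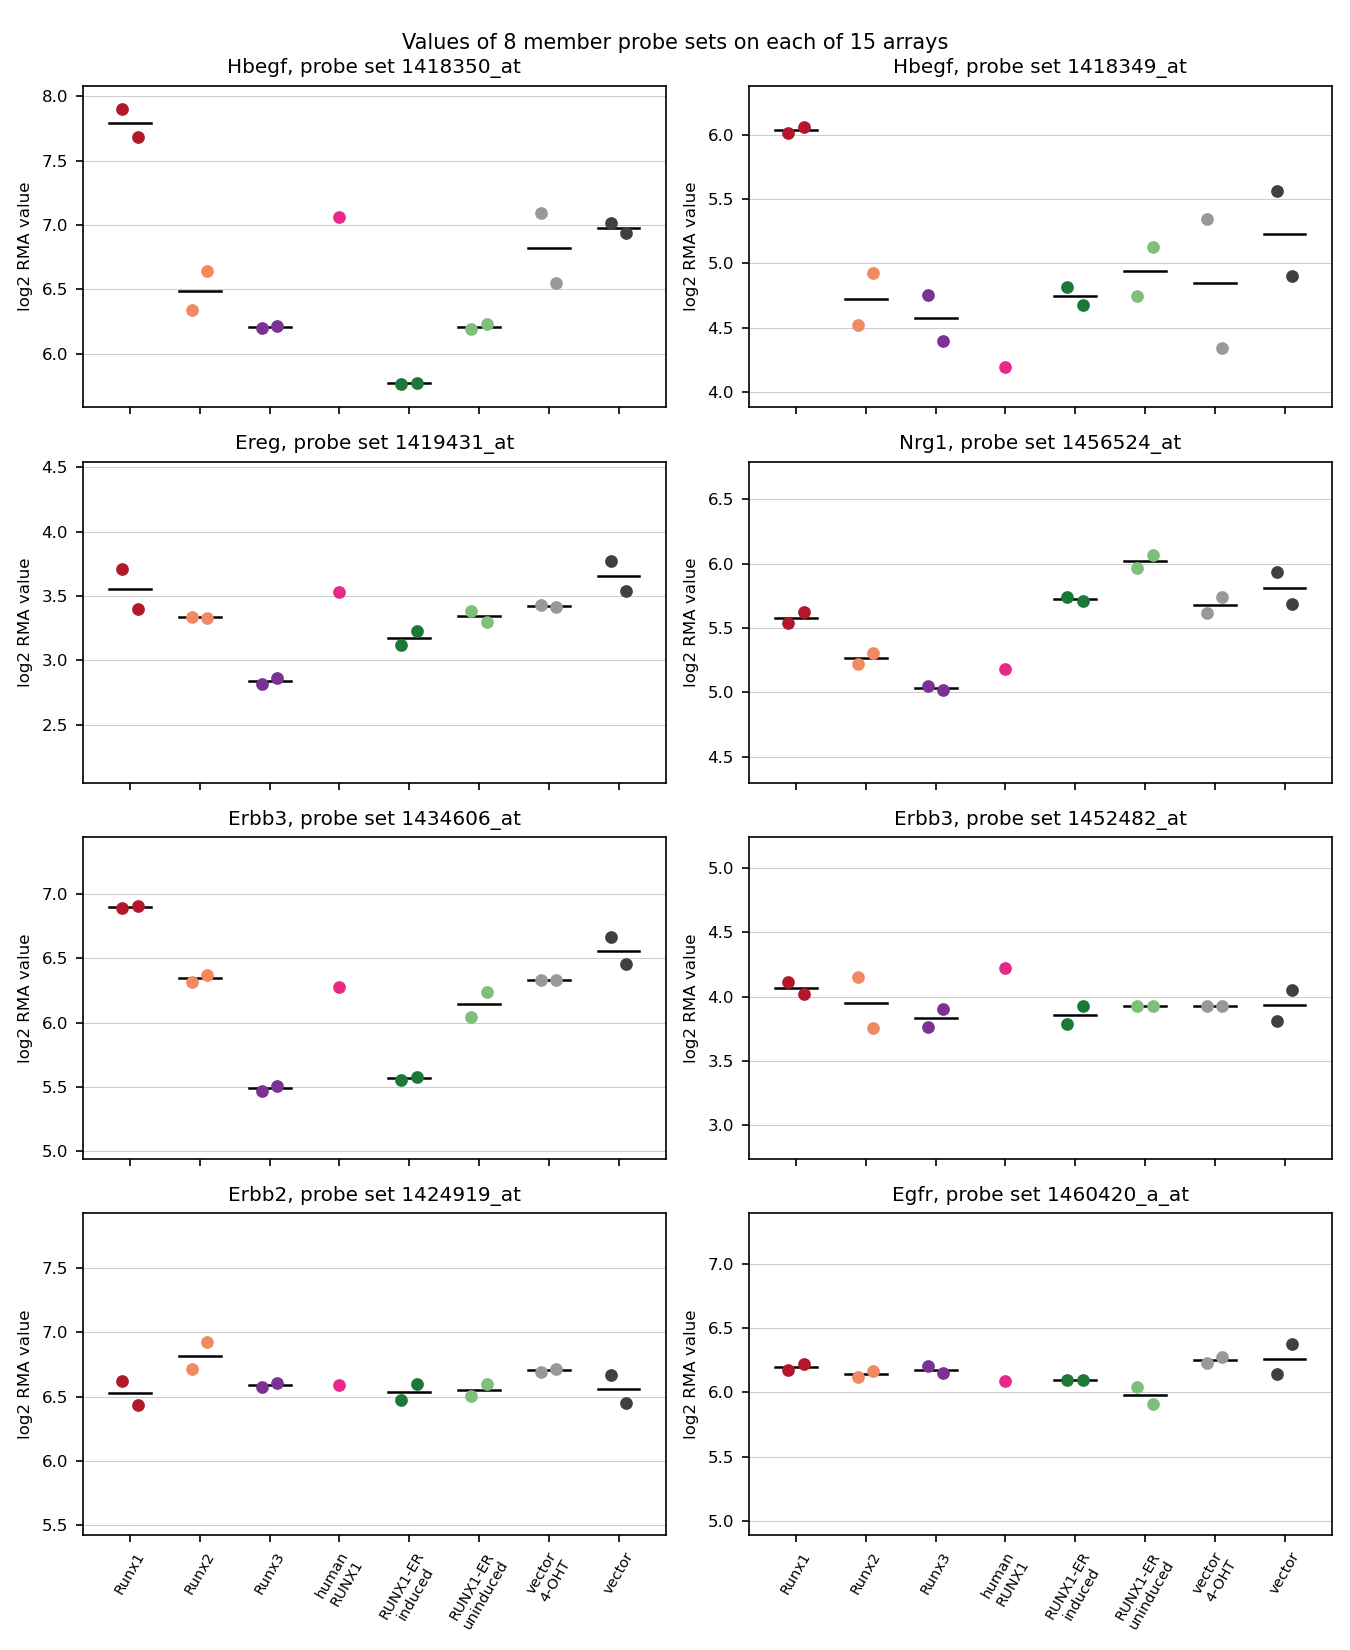
Log2 values (vertical axes, each panel spanning the same number of log2 units) of 8 member probe sets on each of 15 arrays, by group. Points are arrays and horizontal bars are group means. Hbegf is highest in the Runx1 line on both of its probe sets, Ereg, Nrg1 and Erbb3 (1434606_at) are lowest in the Runx3 line, and Erbb2 and Egfr stay within 0.29 and 0.28 log2 units between group means.

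Hbegf, a ligand of the EGF receptor whose human form is also the diphtheria toxin receptor, rose in the Runx1 line and fell in the Runx3 line. Its brighter probe set (1418350_at) read 7.90 and 7.69 on the Runx1 arrays, 6.34 and 6.64 on the Runx2 arrays and 6.20 and 6.22 on the Runx3 arrays. It read 5.76 and 5.77 in induced RUNX1-ER cells, 6.19 and 6.23 in uninduced RUNX1-ER cells, 7.09 and 6.55 in vector cells with 4-OHT and 7.01 and 6.93 in vector cells. The Runx1 arrays lay above all others, the induced RUNX1-ER arrays below all others, and the 2 arrays of vector cells with 4-OHT lay further apart than those of vector cells. Hbegf rose in the Runx1 line by 0.82 log2 units over vector (SE 0.15, 1.77-fold, adjusted p = 0.0182). It was the sole member probe set called in that comparison, 1 of 19 beside 0.928% of all probe sets. The call was lost when any of the 4 arrays was left out, with adjusted p between 0.0635 and 0.194 and differences of 0.71 to 0.93.

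In the Runx3 line Hbegf fell by 0.77 log2 units against vector (SE 0.15, 1.70-fold lower, adjusted p = 0.00761). This call was lost without Runx3 replicate 1 (adjusted p = 0.0539), Runx3 replicate 2 (0.0553) or vector replicate 1 (0.0793). In the Runx2 line the difference from vector was −0.49 (adjusted p = 0.204), which did not pass, although both Runx2 arrays lay below both vector arrays. Induced RUNX1-ER cells differed from vector cells with 4-OHT by −1.05 log2 units (SE 0.15, 2.08-fold lower, adjusted p = 0.00212), a call lost with only these groups in the fit (0.0933). Between induced and uninduced RUNX1-ER cells the difference was −0.44 (adjusted p = 0.327), and between uninduced RUNX1-ER cells and vector cells it was −0.76 (adjusted p = 0.168), and neither passed. With a variance trend on intensity in the same model, the uninduced cells were called lower than vector cells, with an adjusted p of 0.0285.

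The second Hbegf probe set (1418349_at) was dimmer and noisier. It read 6.01 and 6.06 on the Runx1 arrays, 4.52 and 4.93 on the Runx2 arrays, 4.75 and 4.40 on the Runx3 arrays and 5.56 and 4.90 on the vector arrays. In induced RUNX1-ER cells it read 4.81 and 4.68, in uninduced cells 4.75 and 5.13, and in vector cells with 4-OHT 5.35 and 4.34. The Runx1 arrays were again the highest of all, while the RUNX1-ER groups overlapped each other and vector cells with 4-OHT. Its difference between the Runx1 line and vector was 0.81 (SE 0.28, adjusted p = 0.384). The probe sets disagreed on induced RUNX1-ER cells against vector cells with 4-OHT, where this one differed by −0.10 (SE 0.28, adjusted p = 0.939). When the probe sets of each gene were averaged, Hbegf was called in none of its comparisons with vector, with adjusted p = 0.0855 in the Runx1 line, 0.0524 in the Runx3 line and 0.166 in induced RUNX1-ER cells.

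Ereg encodes epiregulin, a ligand of EGFR and ErbB4. Its single probe set (1419431_at) read 3.71 and 3.40 on the Runx1 arrays, 3.34 and 3.33 on the Runx2 arrays, 2.81 and 2.86 on the Runx3 arrays and 3.77 and 3.54 on the vector arrays. Induced RUNX1-ER cells read 3.12 and 3.22, uninduced cells 3.39 and 3.30 and vector cells with 4-OHT 3.43 and 3.42. Both Runx3 arrays lay below every other array, and the probe set was above its array's median on 1 array of 15. Ereg fell by 0.82 log2 units in the Runx3 line (SE 0.11, adjusted p = 0.000532), and no fold is given for a probe set this dim. The Ereg probe set averaged 3.34, so the alternative with only probe sets averaging above 5 could not test it. Its differences from vector of −0.32 in the Runx2 line (adjusted p = 0.294) and −0.11 in the Runx1 line (adjusted p = 0.961) did not pass, nor did the −0.17 between induced and uninduced RUNX1-ER cells (adjusted p = 0.749). In the RefSeq annotation of the mouse genome, Ereg and Btc each lie next to Areg, with 0 protein-coding genes between them, and Btc was called in no comparison.

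Nrg1 encodes neuregulin 1, whose isoforms bind ErbB3 and ErbB4. Its probe set (1456524_at) read 5.54 and 5.62 on the Runx1 arrays, 5.22 and 5.30 on the Runx2 arrays, 5.05 and 5.02 on the Runx3 arrays and 5.93 and 5.68 on the vector arrays. Both Runx2 and both Runx3 arrays lay below every array of the Runx1, RUNX1-ER and vector groups. The RUNX1-ER cells read 5.74 and 5.71 induced and 5.97 and 6.07 uninduced, and vector cells with 4-OHT read 5.62 and 5.74. Nrg1 fell by 0.78 log2 units in the Runx3 line (SE 0.10, 1.71-fold lower, adjusted p = 0.000344), and it fell by 0.55 in the Runx2 line (SE 0.10, 1.46-fold lower, adjusted p = 0.0149). The Runx2 call was lost without Runx2 replicate 1 (adjusted p = 0.136) or vector replicate 1 (0.238) and with only the Runx2 and vector arrays in the fit (0.21), and it missed the threshold with the 4-OHT vector arrays as the control (difference −0.42, adjusted p = 0.0671). It was the sole member probe set called in the Runx2 line, 1 of 19 beside 1.37% of all probe sets. Nrg1 differed by −0.23 in the Runx1 line (adjusted p = 0.64) and by −0.29 between induced and uninduced RUNX1-ER cells (adjusted p = 0.344), and neither passed. This 1 probe set does not tell the Nrg1 isoforms apart.

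Tgfa and Btc, both ligands of the EGF receptor, were dim on all their probe sets. The 3 Tgfa probe sets averaged 4.20 (1450421_at), 3.70 (1421942_s_at) and 3.42 (1421943_at), and the 2 Btc probe sets averaged 3.28 (1435541_at) and 2.99 (1421161_at). In limma's test 0 of the 33 Tgfa tests passed, while 5 had an unadjusted p below 0.05, and the differences ran from −0.32 to 0.39 with a lowest adjusted p of 0.192. For Btc 0 of 22 tests passed, 0 had an unadjusted p below 0.05, and the differences ran from −0.30 to 0.20. The widest 95% intervals over the comparisons reached from −0.54 to 0.71 for Tgfa (1421942_s_at) and from −0.73 to 0.48 for Btc (1435541_at), on a scale where dim probe sets are compressed.

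Erbb3, the kinase-impaired receptor of neuregulins, had the largest fall of any member in the Runx3 line. Its brighter probe set (1434606_at) read 5.47 and 5.51 on the Runx3 arrays, against 6.66 and 6.46 on the vector arrays. The Runx1 arrays read 6.89 and 6.91 and the Runx2 arrays 6.32 and 6.37. In induced RUNX1-ER cells Erbb3 read 5.55 and 5.58, against 6.05 and 6.24 in uninduced cells and 6.33 on both arrays of vector cells with 4-OHT. The Runx3 arrays were the lowest, the induced RUNX1-ER arrays came next, and every other array read 6.05 or more. The difference in the Runx3 line was −1.07 (SE 0.10, 2.10-fold lower, adjusted p = 1.43e-05). Erbb3 remained called lower in the Runx3 line under every alternative that was run. With Hbegf, Ereg and Nrg1, it made 4 of 19 member probe sets that fell in the Runx3 line, beside 5.10% of all probe sets called, and 0 members rose there. The epithelial marker list moved with the same line. Its mean over 7 genes was 4.44 on both Runx3 arrays, against 3.86 and 3.87 on the vector arrays, and its part in the Runx3 results was not tested. Over all arrays Krt8 lay between 3.98 and 6.94 and Cdh1 between 2.81 and 4.42, the widest ranges of the list. The next widest were those of Epcam (4.83 to 5.46) and Krt19 (3.63 to 4.24). Which genes carried the shift of the list was not tested.

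Erbb3 also fell on induction of RUNX1-ER, by 0.58 log2 units against uninduced cells (SE 0.10, 1.49-fold lower, adjusted p = 0.0108). It was the sole member probe set called there, 1 of 19 beside 0.950% of all probe sets. The call was lost without induced replicate 1 (adjusted p = 0.117), induced replicate 2 (0.0959) or uninduced replicate 2 (0.154), and with only the RUNX1-ER arrays in the fit (0.176). Against vector cells with 4-OHT the induced cells differed by −0.77 log2 units (SE 0.10, 1.70-fold lower, adjusted p = 0.000958), a call that remained under every alternative run. Erbb3 and Hbegf were the 2 of 19 member probe sets called in that comparison, beside 1.95% of all probe sets. Before induction, RUNX1-ER cells differed in Erbb3 from vector cells by −0.42 (SE 0.10, adjusted p = 0.298), which did not pass. Both uninduced arrays lay below both vector arrays. For Erbb3 the 4-OHT effect in RUNX1-ER cells minus that in vector cells was −0.35 (SE 0.14, adjusted p = 0.504) and did not pass.

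In the Runx1 line Erbb3 stood 0.34 log2 units above vector (SE 0.10, adjusted p = 0.214), with both Runx1 arrays above both vector arrays. Set against the 4-OHT vector arrays instead, the difference was 0.57 and passed (adjusted p = 0.00963), and against all 4 vector arrays it was 0.46 and passed (adjusted p = 0.0131). Which control matches the treatment of the Runx1 line is not given in the labels. In the Runx2 line the difference was −0.22 (adjusted p = 0.494). The second Erbb3 probe set (1452482_at) averaged 3.95, read between 3.76 and 4.22 on all arrays and passed in no comparison, with differences from −0.23 to 0.14. It did not show the fall in the Runx3 line, where it differed by −0.10 (SE 0.13, adjusted p = 0.854).

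Neither Egfr nor Erbb2 was called in any comparison. The Egfr probe set that averaged above 5 (1460420_a_at) read 6.17 and 6.22 on the Runx1 arrays, 6.11 and 6.16 on the Runx2 arrays, 6.20 and 6.15 on the Runx3 arrays and 6.14 and 6.37 on the vector arrays. Each of these lines overlapped the vector arrays. It read 6.09 and 6.10 in induced RUNX1-ER cells, 6.04 and 5.91 in uninduced cells and 6.23 and 6.28 in vector cells with 4-OHT, so uninduced RUNX1-ER cells held the lowest arrays. Its differences over the 11 comparisons ran from −0.28 to 0.13, and the largest 95% interval bounds were −0.49 and 0.42. Of the 77 tests of 7 Egfr probe sets, 0 passed limma's adjusted threshold, 6 had an unadjusted p below 0.05, and the lowest adjusted p was 0.181. One dim Egfr probe set (1432647_at) became called lower in the Runx3 line when Runx3 replicate 1 was left out, at −0.53 (adjusted p = 0.0485).

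Erbb2, the receptor without a known ligand, read 6.62 and 6.43 on the Runx1 arrays, 6.72 and 6.92 on the Runx2 arrays, 6.58 and 6.60 on the Runx3 arrays and 6.67 and 6.45 on the vector arrays. In RUNX1-ER cells it read 6.47 and 6.60 induced and 6.51 and 6.60 uninduced, and in vector cells with 4-OHT 6.69 and 6.72. The Runx2 arrays and those of vector cells with 4-OHT lay above all others. The difference between the Runx2 line and vector was 0.26 (95% interval 0.02 to 0.49, adjusted p = 0.452). Of its 11 tests 0 passed and 2 had an unadjusted p below 0.05.

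**Figure D2:**
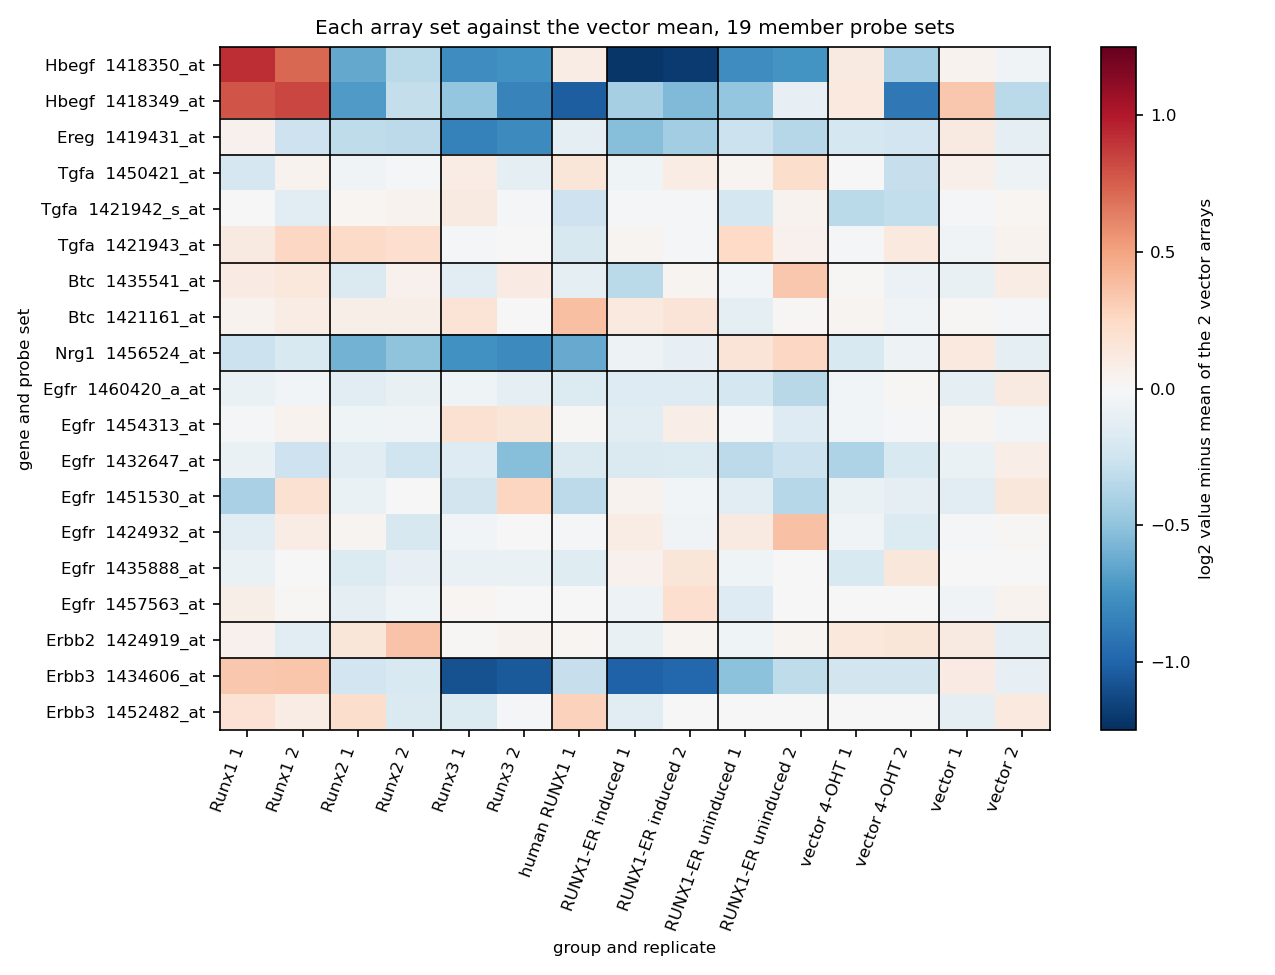
Log2 value of each of the 19 member probe sets (rows, grouped by gene) on each of 15 arrays (columns, by group) minus the mean of the 2 vector arrays, red for higher and blue for lower. Both Hbegf rows are red on the Runx1 arrays, the Erbb3 1434606_at row is darkest blue on the Runx3 and induced RUNX1-ER arrays, and the Tgfa, Btc, Egfr and Erbb2 rows stay pale.

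The order of the group means differed between members. For Hbegf (1418350_at) the order was Runx1, human RUNX1, vector, vector with 4-OHT, Runx2, uninduced RUNX1-ER, Runx3 and induced RUNX1-ER. In that order the vector groups overlapped, vector with 4-OHT overlapped Runx2, and uninduced RUNX1-ER overlapped Runx3. For Erbb3 (1434606_at) the order was Runx1, vector, Runx2, vector with 4-OHT, human RUNX1, uninduced RUNX1-ER, induced RUNX1-ER and Runx3, and of these neighbours Runx2 overlapped vector with 4-OHT while the others did not overlap. For Nrg1 uninduced RUNX1-ER came first, followed by vector, induced RUNX1-ER, vector with 4-OHT and Runx1, of which the last 4 overlapped as neighbours, and then Runx2, human RUNX1 and Runx3 without overlap. For Ereg vector and Runx1 came first and overlapped, and induced RUNX1-ER and Runx3 came last.

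The Runx lines were also set against each other. These differences do not use the vector means, but all 15 arrays enter the estimate of the spread behind each p. In the Runx2 line against the Runx1 line, Hbegf (1418350_at) differed by −1.31 log2 units (SE 0.15, 2.47-fold lower, adjusted p = 0.000908) and Erbb3 (1434606_at) by −0.56 (SE 0.10, adjusted p = 0.0171). These were 2 of 19 member probe sets beside 0.770% of all. The Erbb3 call was lost when any of the 4 arrays was left out, with adjusted p between 0.0516 and 0.144. With only the Runx1 and Runx2 arrays in the fit, neither Hbegf (adjusted p = 0.0841) nor Erbb3 (0.205) was called. The dimmer Hbegf probe set (1418349_at) differed by −1.31 as well (SE 0.28, adjusted p = 0.0515) and missed the threshold.

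The Runx3 line was lower than the Runx1 line in 5 of 19 member probe sets, beside 3.58% of all probe sets. Hbegf differed by −1.59 log2 units on one probe set (1418350_at, SE 0.15, 3.01-fold lower, adjusted p = 3.71e-05) and by −1.46 on the other (1418349_at, SE 0.28, 2.76-fold lower, adjusted p = 0.00892). Erbb3 differed by −1.41 (SE 0.10, 2.66-fold lower, adjusted p = 2.57e-06), Ereg by −0.71 (SE 0.11, adjusted p = 0.00234) and Nrg1 by −0.55 (SE 0.10, adjusted p = 0.00749). The arrays of the lines did not overlap in any of these. Without Runx3 replicate 2, Runx1 replicate 1 or Runx1 replicate 2 the call of the dimmer Hbegf probe set was lost (adjusted p = 0.105, 0.0637 and 0.073), and without Runx3 replicate 2 or Runx1 replicate 2 that of Nrg1 (adjusted p = 0.0685 and 0.0772). Ereg lost its call with only these lines in the fit (adjusted p = 0.0511).

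Against the Runx2 line, the Runx3 line differed in Erbb3 by −0.86 log2 units (SE 0.10, 1.81-fold lower, adjusted p = 0.000481) and in Ereg by −0.50 (SE 0.11, adjusted p = 0.0450). These were 2 of 19 member probe sets beside 1.79% of all. The Ereg call was lost when any of the 4 arrays was left out, with adjusted p between 0.129 and 0.196, and with only these lines in the fit (0.164). Hbegf (1418350_at) differed by −0.28 (adjusted p = 0.519) and Nrg1 by −0.23 (adjusted p = 0.402) between these lines, and neither passed.

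In the remaining 3 comparisons no member was called. Between vector cells with and without 4-OHT, 0 of 19 member probe sets and 0% of all were called by limma, with 3 and 2773 at an unadjusted p below 0.05. Between uninduced RUNX1-ER cells and vector cells 0 of 19 members were called beside 0.00888% of all, with 5 members and 2985 of all probe sets at an unadjusted p below 0.05. For the 4-OHT effect in RUNX1-ER cells minus that in vector cells the counts were 0 of 19 members beside 0.329% of all, with 3 members and 3871 of all probe sets at an unadjusted p below 0.05. The median over the 19 members lay between −0.10 and 0.06 in all 11 comparisons, and the median over all probe sets between −0.03 and 0.05. The Runx1, Runx2 and Runx3 comparisons and that of uninduced RUNX1-ER cells use the same vector arrays.

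**Figure D3:**
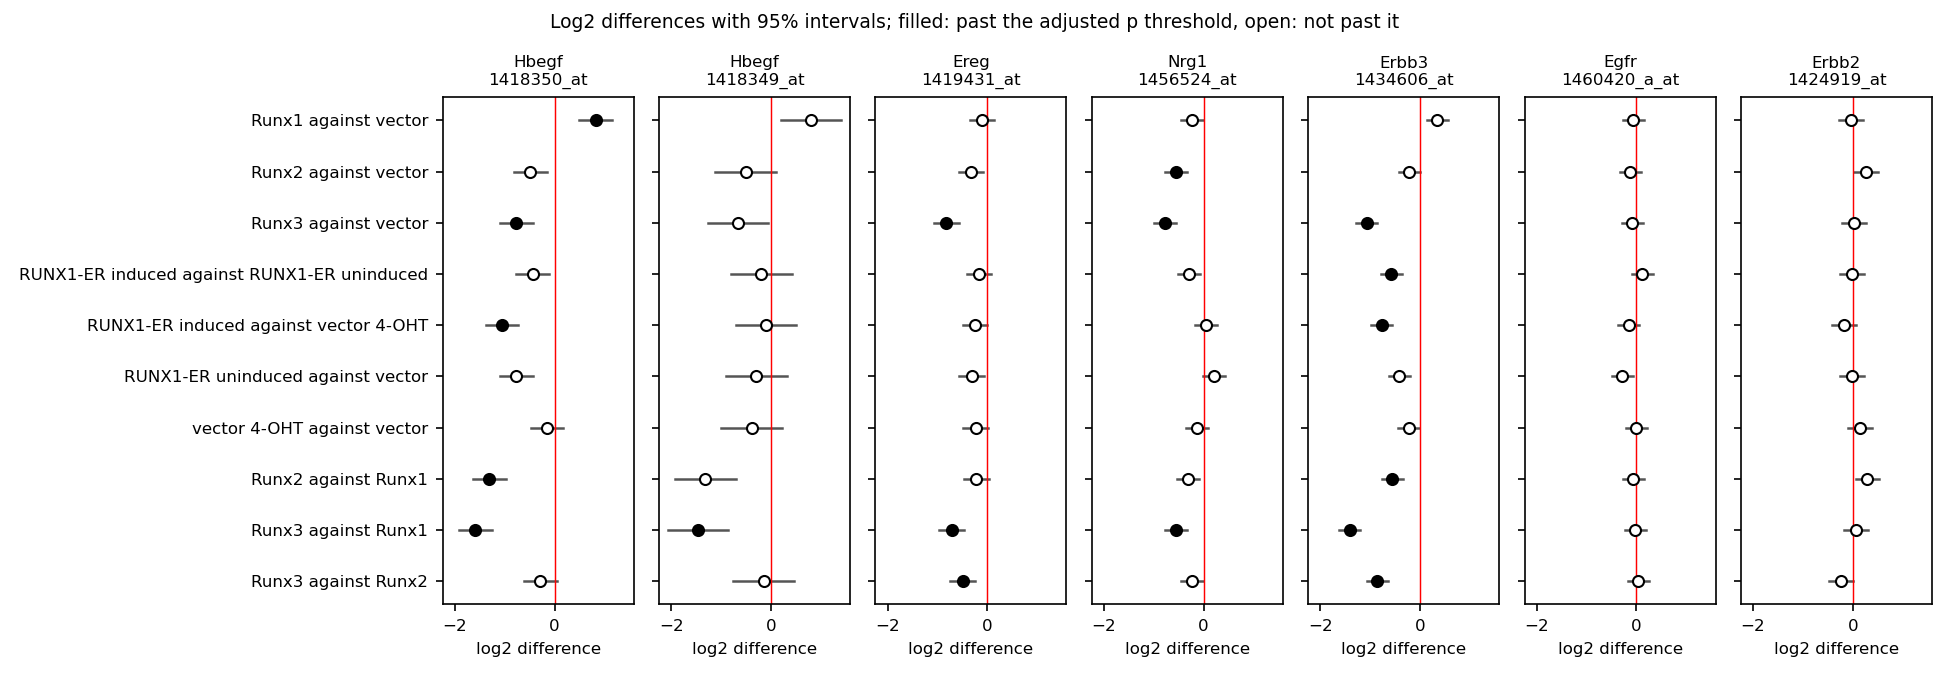
Log2 differences (horizontal axes) with 95% intervals of 7 member probe sets (panels) in 10 comparisons (rows, the first-named group minus the second). Filled points passed an adjusted p of 0.05 and open points did not. Erbb3 is filled in 6 rows, Hbegf 1418350_at in 5, Ereg and Nrg1 in 3 each, Hbegf 1418349_at in 1 and Egfr and Erbb2 in none.

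The human RUNX1 line gave 1 array, so its differences have no replicate check and no test. Hbegf (1418350_at) read 7.06 there, 0.09 above the mean of the vector arrays, while its other probe set (1418349_at) read 4.20, a difference of −1.03 and the lowest of all 15 arrays. Erbb3 (1434606_at) differed from the vector mean by −0.28, Nrg1 by −0.63, Ereg by −0.12 and Erbb2 by 0.03. Of the 19 member probe sets 4 lay above both vector arrays, 11 below both and 4 between them. Of all probe sets 30.5% lay above both, 46.6% below both and 22.9% between them. On both Hbegf probe sets the array lay below both mouse Runx1 arrays, with differences of −0.73 and −1.84 from their mean.

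Other genes of the pathway were taken as 5 lists of 61 genes, each gene by its brightest probe set. Counted the same way, over 18193 genes, the share called was 1.42% in the Runx1 line, 2.13% in the Runx2 line, 7.83% in the Runx3 line and 1.41% on induction of RUNX1-ER. Among the 8048 genes whose brightest probe set averaged above 5, the share was 2.78% in the Runx1 line, 4.24% in the Runx2 line, 15.5% in the Runx3 line and 2.86% on induction. In lists this short a single call weighs heavily against these shares. Egf, Epgn, Nrg2, Nrg3, Nrg4 and Erbb4, the remaining ligands and the remaining receptor, were called in 0 of 66 limma tests, with 3 at an unadjusted p below 0.05, and 0 of the 6 averaged above 5. Of 10 sheddases and their regulators, 1 rose and 1 fell in the Runx1 line, 1 fell in the Runx2 line and 3 fell in the Runx3 line. Of all genes 7.83% were called in the Runx3 line, and 15.5% of those averaging above 5, as 8 of the 10 did. On induction of RUNX1-ER 0 of the 10 were called by limma on their brightest probe set, and 4 had an unadjusted p below 0.05. By its brightest probe set Timp3, an inhibitor of metalloproteinases that include ADAM17, fell in all 3 mouse lines. Its log2 difference from vector was −0.64 in Runx1 cells (SE 0.09, adjusted p = 0.00289) and −0.80 in Runx2 cells (adjusted p = 0.000432). In Runx3 cells Timp3 fell by 1.00 (adjusted p = 1.59e-05). The Timp3 calls remained without any single array. The other Timp3 probe sets were 1419088_at, 1419089_at and 1449334_at. In the Runx1 line they differed by −0.75, −0.49 and −0.34 and were not called (adjusted p = 0.544, 0.3 and 0.3). In Runx3 cells all of them were called lower, and in Runx2 cells all but 1419088_at (adjusted p = 0.11). On induction 1449334_at was called higher, by 0.54 (adjusted p = 0.0307), and the others were not called. Adam19, a metalloproteinase that can cut neuregulins, rose by 0.72 in the Runx1 line (SE 0.09, adjusted p = 0.000963), and its other probe set (1418403_at) was called there too, at 0.62. Adam17, the main sheddase of several EGF receptor ligands, fell by 0.48 in the Runx3 line on its brightest probe set (adjusted p = 0.012). Its other probe sets were not called there (1421857_at, −0.45, adjusted p = 0.249, and 1421859_at, −0.25, adjusted p = 0.484). Adam9, another membrane protease, fell by 0.46 there (adjusted p = 0.0051). Adam17 was lost without Runx3 replicate 2 (adjusted p = 0.124) or vector replicate 1 (0.154) and Adam9 without Runx3 replicate 1 (0.0598) or vector replicate 1 (0.066), so the 3 lower calls became 1 without vector replicate 1.

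Among 14 receptor inhibitors and turnover genes, 1 fell in the Runx1 line, 1 fell in the Runx2 line, 2 rose and 2 fell in the Runx3 line, and 1 rose and 2 fell on induction. Of all genes 7.83% were called in the Runx3 line and 1.41% on induction. Of those averaging above 5, as 11 of the 14 did, 15.5% and 2.86% were called. Errfi1, an inhibitor of ErbB kinases that ERK signalling induces, accounts for the calls in the Runx1 and Runx2 lines. Its log2 difference from vector was −0.92 for Runx1 (adjusted p = 0.0267), −1.17 for Runx2 (adjusted p = 0.00397) and −2.06 for Runx3 (SE 0.18, adjusted p = 8.77e-06). On induction Errfi1 fell by 0.84 (adjusted p = 0.0458). The Runx1 call was lost without Runx1 replicate 1 (adjusted p = 0.16), Runx1 replicate 2 (0.213) or vector replicate 1 (0.355), the Runx2 call without vector replicate 1 (0.0771), and the induction call without any 1 of its 4 arrays (0.0679 to 0.357). The other Errfi1 probe set (1419816_s_at) was called lower in the Runx2 line (−1.19, adjusted p = 0.00673) and the Runx3 line (−1.71, adjusted p = 0.000114). It was not called in the Runx1 line (−0.78, adjusted p = 0.119) or on induction (−0.57, adjusted p = 0.349). Lrig1, a membrane protein that lowers ErbB receptor levels, fell by 0.65 on induction (SE 0.10, adjusted p = 0.00376) and was lost without induced replicate 1. Its other probe sets were not called on induction (1434210_s_at, −0.45, adjusted p = 0.135, and 1419928_at, −0.07, adjusted p = 0.927). Socs5, a suppressor of cytokine signalling, rose by 0.47 (adjusted p = 0.0386) and was lost without any 1 array. Its other probe set (1423349_at) was called higher on induction too (adjusted p = 0.00923). Sh3kbp1, an adaptor in receptor endocytosis, rose in the Runx3 line by 0.74 (SE 0.09, adjusted p = 0.000212). Ptpn1, a tyrosine phosphatase, rose there by 0.43 (adjusted p = 0.0234) and was lost without Runx3 replicate 2, vector replicate 1 or vector replicate 2. Its other probe set (1438670_at) was not called in the Runx3 line (0.17, adjusted p = 0.716). Lrig1, named here after its values were seen, also fell in the Runx3 line, by 0.43 (adjusted p = 0.0193), a call lost when any of the 4 arrays was left out (0.0584 to 0.165). The 3 calls on induction became 0 or 1 when single arrays were left out. The count of 4 calls in the Runx3 line became 2 without Runx3 replicate 2, vector replicate 1 or vector replicate 2.

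Of 15 adaptor and ERK cascade genes 10 were measured, and 1 of them was called in the Runx3 line, near the 7.83% of all genes called there and below the 15.5% of the brighter genes, as all 10 averaged above 5. This was Sos1, a Ras activator, at −0.42 (adjusted p = 0.0343), a call lost when any of the 4 arrays was left out. Its other probe sets were not called there. They differed by −0.10 (1421884_at, adjusted p = 0.888), −0.11 (1421886_at, 0.88), 0.17 (1421885_at, 0.632) and 0.19 (1431311_at, 0.747). Of 16 ERK feedback and ERK-induced genes, 8 fell and 1 rose in the Runx3 line, beside 7.83% of all genes by their brightest probe set and 15.5% of those averaging above 5, as 10 of the 16 did. The list median was −0.65, against 0.000463 over all genes by their brightest probe set. Between 7 and 8 of the 16 remained called when single arrays were left out. Phlda1, a pleckstrin homology-like domain protein, fell by 2.25 log2 units (SE 0.18, adjusted p = 3.28e-06). Fosl1, an AP-1 subunit, fell by 1.42 (SE 0.12, adjusted p = 4.88e-06), and Egr1, an immediate early transcription factor, fell by 1.28 (SE 0.24, adjusted p = 0.00603). Egr1 was lost without Runx3 replicate 1 (adjusted p = 0.0688) or vector replicate 1 (0.101). The 1 that rose was the transcription factor Myc, at 0.85 (adjusted p = 0.000512), which is named here after its values were seen and was called with any of the 4 arrays left out (0.00411 to 0.0118).

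In the Runx2 line, where 2.13% of all genes and 4.24% of those averaging above 5 were called, 2 of these 16 genes fell. These were Phlda1 with a log2 difference of −1.65 (adjusted p = 0.000236) and Fosl1 with −0.94 (adjusted p = 0.000672). In the Runx1 line 1 rose and 1 fell, where 1.42% of all genes and 2.78% of those averaging above 5 were called. Dusp4, a phosphatase of ERK, rose by 0.98 (SE 0.13, adjusted p = 0.00165), and Phlda1 fell by 0.96 (adjusted p = 0.0182), a call lost when any of the 4 arrays was left out (0.0513 to 0.244). The Dusp4 probe set was dim, with a mean of 3.85 over all arrays, 4.65 in Runx1 cells and 3.67 in vector cells. Whether it read above background was not tested. On induction 1 of the 16 was called, beside 1.41% of all genes and 2.86% of those averaging above 5. This was Ier3, an immediate early gene, which fell by 1.18 (SE 0.22, adjusted p = 0.0194). Ier3 was lost without induced replicate 1 (0.232), induced replicate 2 (0.055) or uninduced replicate 2 (0.237).

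**Figure D4:**
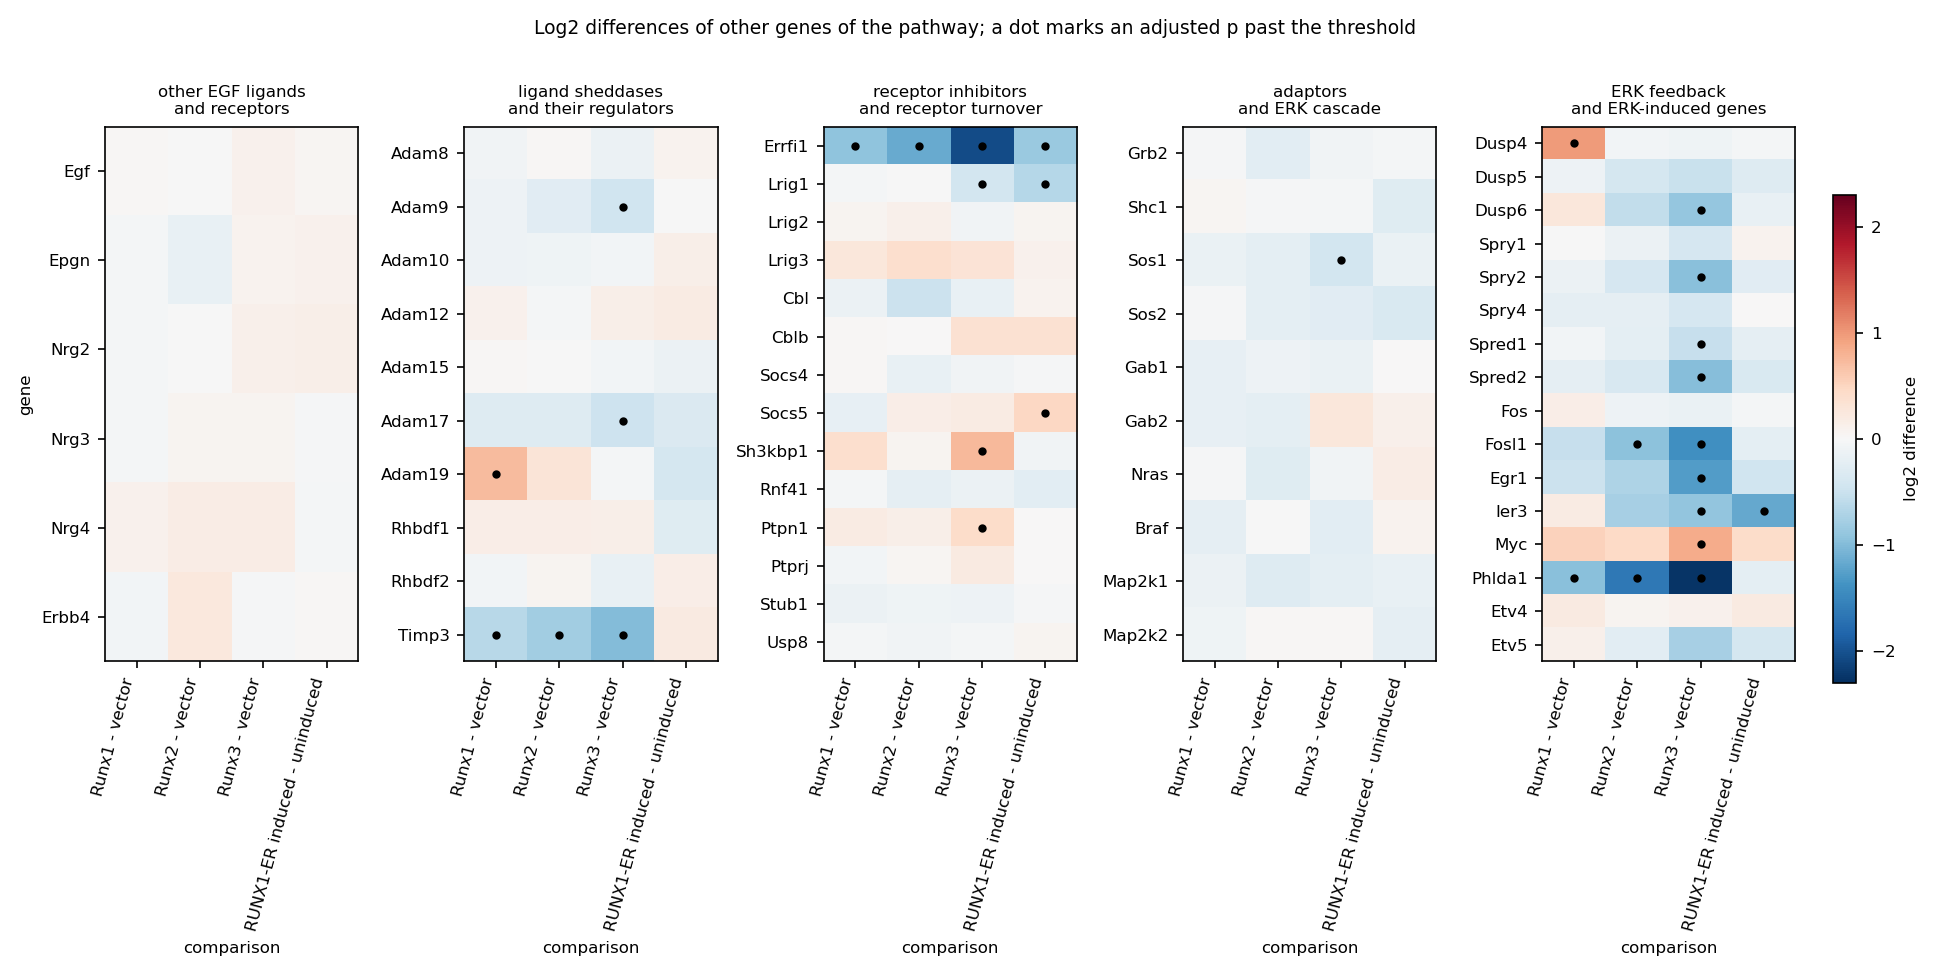
Log2 differences (colour, red for higher and blue for lower) of the measured genes of 5 pathway lists (panels) in the Runx1, Runx2 and Runx3 lines against vector and in induced against uninduced RUNX1-ER cells (columns). Dots mark adjusted p below 0.05. Errfi1 has a dot in all 4 columns, Timp3 and Phlda1 in the 3 line columns, and the Runx3 column of the ERK panel has 9 dots.

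The genes whose 8 group means were most like a member's were taken from 913 or 914 probe sets that averaged above 5 and whose group means spanned at least 1 log2 unit. The likeness is Pearson's r over the 8 group means, which share the arrays and the normalization, and it is a description. Those most like Hbegf (1418350_at) were Cavin2 (r = 0.947), Stbd1 (0.884) and Erbb3 (0.879). Erbb3 (1434606_at) was most like Osmr (0.939), Adcy7 (0.926) and Stbd1 (0.905). Nrg1 was most like 2 probe sets of Gask1b (0.997 and 0.990) and Rassf2 (0.983). Ereg was most like Apcdd1 (0.936), Pdk1 (0.933) and Cdkn3 (0.926). Between Nrg1 and Erbb3, ligand and receptor, r was 0.26, and between Hbegf and Egfr it was 0.47.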

How the data were processed

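The authors deposited log2 values of 45101 probe sets on 15 arrays. Per the labels' protocols, GCOS produced the raw data and RMA (Robust Multichip Average, Bioconductor affy, run by FunAlyse) normalized them; no version is given in the sources used here. This method subtracts background, gives every array 1 distribution of probe intensities and shrinks dim differences, so it hides any change in total RNA. The probe set values still differed between arrays, with a 75th percentile from 5.48 to 5.70. The values' range shows the log2 scale. The 64 control probe sets were left out. Symbols came from the platform annotation: 34945 probe sets had 1 symbol, 932 several and 9160 none.

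The test was limma 3.58.1 in R 4.3.3 (lmFit and eBayes, two-sided), with 1 coefficient per group over all 15 arrays (7 residual and 6.213 prior degrees of freedom). Benjamini-Hochberg adjustment ran over 45037 probe sets within each comparison, with a threshold of 0.05. The steps were tested on simulated data. The members and gene lists were chosen with earlier results of these data known. All member probe sets are named. Of each pathway list, up to 3 called genes per comparison with the largest change are named for the 3 mouse lines and for induction. For each member called on its brightest probe set, the 3 probe sets of highest likeness are named. Replicate numbers were not taken as pairs.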

Additional observations from a re-analysis of the deposited data

Results flagged for a closer look

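The direct comparisons between Runx lines gave 9 differences of member probe sets that passed limma's adjusted threshold in a test of the difference itself. Of these, 3 were called under every alternative run, and the other 6 lost their call under at least 1. In the Runx2 line against the Runx1 line, Hbegf (1418350_at) differed by −1.31 and Erbb3 (1434606_at) by −0.56 log2 units. In the Runx3 line against the Runx1 line, Hbegf differed by −1.59 (1418350_at) and −1.46 (1418349_at), Erbb3 (1434606_at) by −1.41, Ereg by −0.71 and Nrg1 by −0.55. In the Runx3 line against the Runx2 line, Erbb3 (1434606_at) differed by −0.86 and Ereg by −0.50. The 3 were Hbegf (1418350_at) and Erbb3 in Runx3 against Runx1 and Erbb3 in Runx3 against Runx2, while Erbb3 in Runx2 against Runx1 and Ereg in Runx3 against Runx2 were lost when any single array of the lines was left out. No group held the 4 arrays that a test for an outlying sample needs.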

How the results depend on the processing

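Of the 18 called member results, 7 were called under every alternative that tested them, and the filter on means above 5 left out Ereg. Of 209 member results 0 reversed, and 4 of 191 not called passed under at least 1. The 7 were the falls of Ereg, Nrg1 and Erbb3 (1434606_at) in the Runx3 line against vector, of Erbb3 in induced RUNX1-ER cells against vector with 4-OHT, of Hbegf (1418350_at) and Erbb3 in the Runx3 against the Runx1 line, and of Erbb3 in the Runx3 against the Runx2 line. Counts of probe sets called over the whole table moved more. With a variance trend on intensity they were 642 in Runx1 against vector (main 418), 972 in Runx2 against vector (main 619), 791 on induction (main 428), 1489 in induced RUNX1-ER against vector with 4-OHT (main 878), 97 in uninduced RUNX1-ER against vector (main 4), 343 for the difference of 4-OHT effects (main 148) and 604 in Runx2 against Runx1 (main 347). It also called Hbegf (1418349_at) in Runx2 against Runx1 (adjusted p = 0.00595). With only the groups compared in the fit, the counts were 237 in Runx1 against vector, 183 in Runx2 against vector, 82 on induction, 191 in induced RUNX1-ER against vector with 4-OHT, 0 in uninduced RUNX1-ER against vector, 76 for the difference of 4-OHT effects, 18 in Runx2 against Runx1, 827 in Runx3 against Runx1 (main 1611) and 87 in Runx3 against Runx2 (main 804). That fit has fewer residual degrees of freedom, and Nrg1 in Runx2 against vector (adjusted p = 0.21), Erbb3 on induction (0.176), Hbegf in induced RUNX1-ER against vector with 4-OHT (0.0933), Hbegf (0.0841) and Erbb3 (0.205) in Runx2 against Runx1, and Ereg in Runx3 against Runx1 (0.0511) and Runx2 (0.164) lost their calls in it. With only probe sets that averaged above 5, fewer were tested and 726 were called on induction, 1511 in induced RUNX1-ER against vector with 4-OHT, 16 in uninduced RUNX1-ER against vector, 266 for the difference of 4-OHT effects and 1284 in Runx3 against Runx2. With the mean of a gene's probe sets 1504 were called in Runx3 against vector, 11 in uninduced RUNX1-ER against vector and 1073 in Runx3 against Runx1, and Erbb3 lost its call on induction (adjusted p = 0.0668) and in Runx2 against Runx1 (0.0593). The count in uninduced RUNX1-ER against vector was 8 with the brightest probe set per gene, 7 after another quantile normalization and 12 with arrays centred on their median, and Ereg in Runx3 against Runx2 lost its call under both of these scalings (adjusted p = 0.0576 and 0.0527). They also moved the share of higher calls. Centring gave 208 higher and 229 lower on induction (main 247 and 181), quantile normalization gave 453 higher and 376 lower in induced RUNX1-ER against vector with 4-OHT (main 603 and 275), and in uninduced RUNX1-ER against vector they gave 10 higher and 2 lower, and 5 higher and 2 lower (main 2 and 2). With the 4-OHT vector arrays as the control 650 were called in the Runx1 line, and with all 4 vector arrays 721. The 4-OHT vector arrays as the control also gave 1523 higher and 1262 lower in the Runx3 line (main 914 and 1383) and 454 and 196 in the Runx1 line (main 243 and 175), and called the 4 member falls in the Runx3 line too. Leaving out single arrays gave 179 to 227 calls in Runx1 against vector, 251 to 613 in Runx2, 1217 to 1577 in Runx3, 163 to 577 on induction, 324 to 876 in induced RUNX1-ER against vector with 4-OHT, 0 to 177 in uninduced RUNX1-ER against vector, 0 to 2 for 4-OHT in vector cells, 67 to 192 for the difference of 4-OHT effects, 116 to 354 in Runx2 against Runx1, 811 to 1018 in Runx3 against Runx1 and 322 to 519 in Runx3 against Runx2. A group left with 1 array was assumed to vary like the others. Unless stated, the cause of these shifts was not tested.

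Groups share the replicate numbers 1 and 2, but the labels do not say that a number marks a shared batch. Deviations of same-numbered arrays correlated between −0.109 and 0.144 over 21 pairs of groups, 8 of them negative. With the number as a block, 399 probe sets were called in Runx1 against vector, 2205 in Runx3 against vector and 2 in uninduced RUNX1-ER against vector, and no member's call changed. Dimness limits Ereg, Tgfa, Btc and most Egfr probe sets.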
